A study of Homo sapiens with 40 samples.

Results

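The genes described here are 9 stress transcription regulators that were picked by name: ATF4, ATF3, ATF5, DDIT3, CEBPB, CEBPG, JDP2, NUPR1 and TRIB3. They are 9 of the 58395 genes in the count table and 9 of the 28922 genes that entered the tests, so no member was lost to the filter of at least 10 counts summed over all libraries. Their RNA was sequenced in HEK293A, a human line of embryonic kidney origin that grows attached to the dish, as wild type (WT) and as PARP1-KO cells, which are 1 clone with a CRISPR/Cas9 deletion in PARP1, the gene of a DNA damage sensor. Each genotype had 5 treatments of 5 to 5.5 h with 4 libraries each, which gives 10 groups and 40 libraries. The treatments were no treatment, 0.1% DMSO, the TOP1 poison topotecan (Tpc), the TDP1 inhibitor OL9-119 at 5 μM in 0.1% DMSO, and Tpc with 5 μM OL9-119. The Tpc dose was 100 nM in WT cells and 50 nM in PARP1-KO cells, with 0.1% DMSO, so a genotype comparison that involves Tpc is also a comparison of doses. Because the knockout is 1 clone, a difference of that clone cannot be told apart from the loss of PARP1. The sample titles call these cells KO_PARP1 and another label calls them a knockdown. The labels call the replicates biological and the study's methods call them technical, so p-values measure only the spread between these samples.

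ATF4 is the central transcription factor of the integrated stress response. When the initiation factor eIF2α is phosphorylated, most translation falls while ATF4 mRNA is translated more, and ATF4 then turns on genes for amino acid supply, transfer RNA charging and further stress regulators. ATF4 works as a dimer with other leucine zipper proteins such as CEBPG and CEBPB. ATF3, ATF5, DDIT3 (CHOP) and NUPR1 act downstream of it, and TRIB3, a pseudokinase, is an ATF4 target that feeds back on ATF4. JDP2 is a leucine zipper repressor related to ATF3. The ATF4 protein is controlled largely at translation, which counts of RNA do not show.

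ATF4 and its C/EBP partners bind the C/EBP-ATF response element, whose letters are TGATGNAA. These letters were searched on both strands from 500 bases before to 50 bases after each RefSeq start site on hg38, because such sites are what the members share in known biology. The promoter table held 8 of the 9 members, and 5 of the 8 had a match, while ATF4, ATF5 and CEBPB had none. Of all 27305 genes in the table, 8.03% had a match at 1 or more of their start sites. Counted by start site, 9 of the 19 of the members had a match, and of all 35116 start sites 6.64% had one and 1.41% had the stricter letters TGATGCAA. Start sites of the same gene can share a match, as those of DDIT3, JDP2 and TRIB3 did, so they are not separate matches. The matches are printed 5′ to 3′ on the strand of the gene, 30 bases each, with the 8 matching letters in capitals, and TTGCATCA is TGATGCAA read on the other strand.
TRIB3: ttagctccggtTTGCATCAcccggaccggg
DDIT3: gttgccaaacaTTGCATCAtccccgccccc
CEBPG: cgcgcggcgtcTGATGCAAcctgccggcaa
JDP2: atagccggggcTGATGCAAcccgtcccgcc
ATF3: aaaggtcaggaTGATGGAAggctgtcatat

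The TRIB3 stretch is at chr20:380881-380910 on the plus strand, and the same 30 bases came again at chr20:380914-380943 and chr20:380947-380976, each 33 bases further on. TRIB3 therefore had 3 matches, which 0.0142% of the start sites had. These were 5 start sites, and 3 of the 5 were those of TRIB3, which share the same 3 matches. The DDIT3 stretch is at chr12:57520802-57520831 on the minus strand, the CEBPG stretch at chr19:33374060-33374089, the JDP2 stretch at chr14:75427995-75428024 and the ATF3 stretch at chr1:212565205-212565234. The CEBPG, JDP2 and ATF3 stretches are on the plus strand. The TRIB3 and JDP2 stretches overlap an annotated exon of the gene and the other 3 stretches lie outside the gene's exons. ATF3 has the letters TGATGGAA, which match the search with G in the free position, and the other 4 genes have TGATGCAA. A match is a description of letters and not a measured binding site.

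The genes lie on 7 chromosomes of hg38 and several share exonic bases with a neighbour. DDIT3 (ENSG00000175197, chr12:57516588-57521737, minus strand) shares 355 bases, 27.2% of its exonic length, with MARS1 on the other strand and 58 bases with MBD6 there. It also shares 105 bases, 8.03%, with ENSG00000285133 on its own strand, and reads from these bases cannot be told apart under any strand setting. ATF5 (ENSG00000169136, chr19:49928702-49933935) shares 565 bases, 19.5%, with NUP62, and CEBPB (ENSG00000172216, chr20:50190830-50192668) shares 231 bases, 12.6%, with CEBPB-AS1. JDP2 (ENSG00000140044, chr14:75427716-75474111) shares 26 bases with JDP2-AS1. The strand setting of the counting is not stated, so it is not known how reads in the shared bases of these 4 genes were counted or left out. A check on 150 antisense RNAs that lie within the exons of a coding gene on the other strand gave a median read density of 0.102% of the coding gene, so the counts were not those of the opposite strand. The check does not tell counting by strand from counting without regard to strand. ATF4 (ENSG00000128272, chr22:39519695-39522683), ATF3 (ENSG00000162772, chr1:212565334-212620777), CEBPG (ENSG00000153879, chr19:33373685-33382686), TRIB3 (ENSG00000101255, chr20:362835-397559) and NUPR1 (ENSG00000176046, chr16:28532708-28539008, minus strand) had no such exonic overlap.

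Library totals ranged from 3455043 to 20379777 counts with a median of 10656829. Levels are given as counts scaled to a common depth (CPM) on TMM-scaled library sizes. PARP1 stood at 737 to 887 CPM in the WT libraries and at 30.4 to 46.6 CPM in the PARP1-KO libraries. The kidney line markers VIM, KRT8 and KRT18 were abundant in all libraries, at no less than 189 CPM, while NEFM (3.38 to 49.6 CPM) and PAX2 (0.0979 to 12.1 CPM) were low. The summed level of 8 markers of leukocytes, endothelium, hepatocytes and muscle was 0 to 7.11 CPM in WT and 1.32 to 4.59 CPM in PARP1-KO libraries, and 4 of the 8 were below 1 CPM in every library. At a depth thinned to that of the smallest library, 15510 to 20619 genes were detected in WT and 17970 to 21571 in PARP1-KO libraries. The part of this difference in the results below was not tested.

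Per kilobase of exon, ATF4 had the highest level of the 9 genes, with a mean over the 20 libraries of a genotype of 204 CPM per kb in WT and 297 CPM per kb in PARP1-KO cells. JDP2 had the lowest, at 2.12 CPM per kb in WT and 1.57 CPM per kb in PARP1-KO cells, and NUPR1 came next, at 3.29 and 7.95 CPM per kb. The length was that of all annotated exons of a gene together, 6259 bases for JDP2 and 5508 for NUPR1. A gene whose transcripts are shorter than this is placed lower, so the order depends on the annotation. Across treatments the WT groups were spread much further apart than the PARP1-KO groups for most of the genes. The highest WT group mean was 4.50 times the lowest for DDIT3, 4.46 times for CEBPB, 4.01 times for ATF3 and 2.99 times for TRIB3. In PARP1-KO cells the same ratios were 1.41, 1.42, 1.18 and 1.23. ATF5 was the exception, with 1.15 in WT and 1.35 in PARP1-KO cells. These ratios are descriptions, since OL9-119 was known to raise some of the genes when they were picked.

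**Figure D1:**
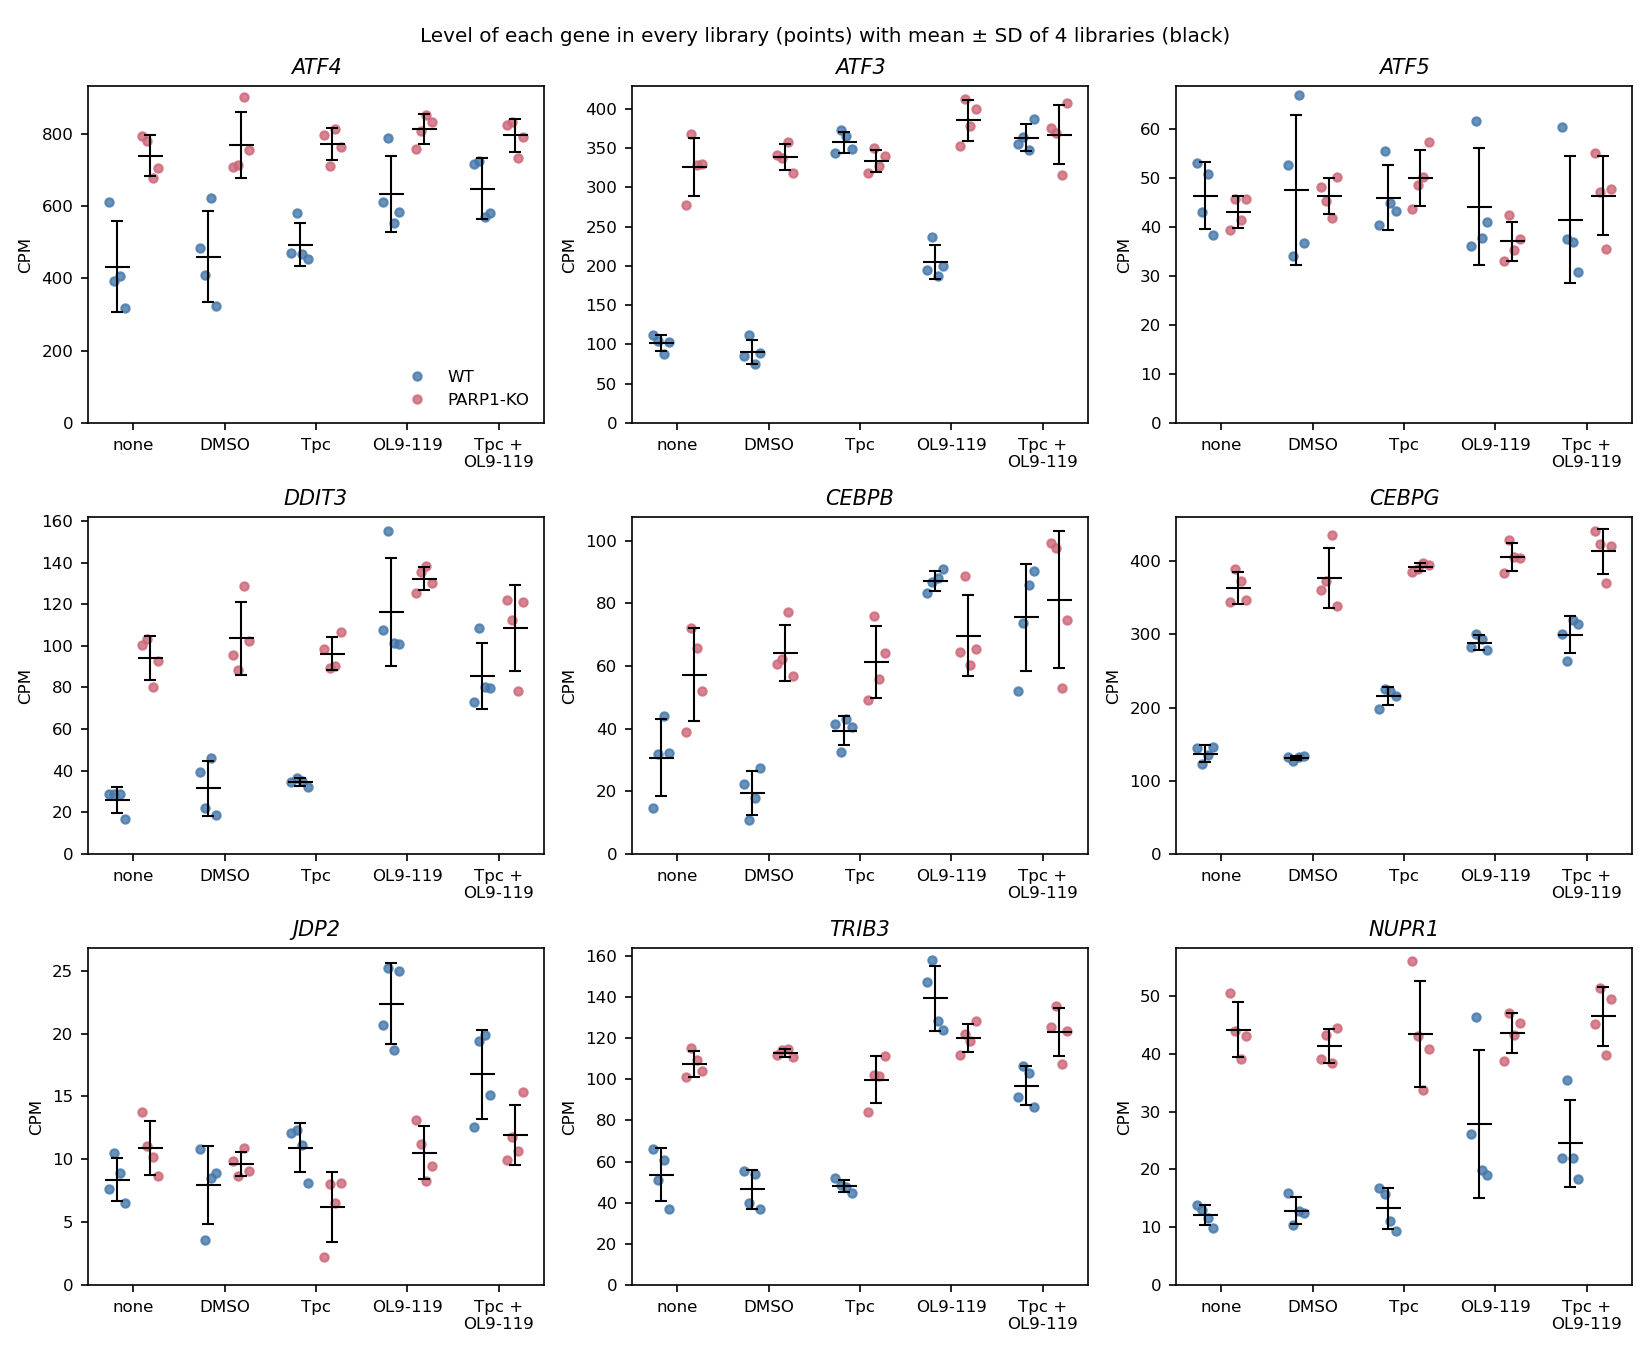
Level of each of the 9 genes in CPM (vertical axes, linear and starting at 0) in every library of the 5 treatments (horizontal axes), WT in blue and PARP1-KO in red, with black bars for the mean ± SD of 4 libraries. The WT points of DDIT3 climb from a mean of 25.9 CPM without treatment to 116.3 CPM with OL9-119, while the PARP1-KO points lie between 78.4 and 138 CPM under every treatment.

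The first comparison asked how the cells without PARP1 differ from WT cells before any drug. Without treatment, 7 of the 9 genes were higher in PARP1-KO cells and none was lower, where 5.97% of all genes tested were called higher and 5.74% lower. The test was the quasi-likelihood F-test of edgeR with adjustment over all genes and a threshold of 0.01. The median log2 fold change was 1.00 for the 9 genes and 0.17 for all genes tested, and with DMSO it was 1.52 and 0.19. The all-gene medians depended on the filter on low counts. With the stricter filterByExpr, which kept 18230 genes, they were 0.03 and 0.04. When the members were picked, it was already known that ATF4 target genes were higher in this clone, so the direction is not independent evidence.

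ATF4 stood at 611, 392, 406 and 318 CPM in the untreated WT libraries and at 792, 781, 676 and 704 CPM in the untreated PARP1-KO libraries. All PARP1-KO libraries were above all WT libraries. The log2 fold change was 0.77 ± 0.14 (SE; edgeR adjusted p = 1.62e-05), a 1.71-fold difference. CEBPG, a partner of ATF4 with little activating domain of its own, was at 145, 122.7, 135 and 146 CPM in WT and at 344, 389.9, 373 and 347 CPM in PARP1-KO cells, a log2 fold change of 1.41 ± 0.10 (edgeR adjusted p = 1.31e-17). Under every treatment its PARP1-KO libraries stayed above its WT libraries, with a WT maximum of 319.6 CPM and a PARP1-KO minimum of 339 CPM over 20 libraries each. CEBPG was alone among the 9 genes in having its genotypes fully apart over all treatments. The share of all genes tested that were fully apart was not counted.

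CEBPB, which pairs with ATF4 and with DDIT3, was at 14.5, 31.96, 44.2 and 32.4 CPM in untreated WT and at 38.89, 72.2, 65.6 and 51.9 CPM in untreated PARP1-KO cells. The lowest PARP1-KO library was below the highest WT library. The log2 fold change of 0.91 ± 0.22 passed the test (edgeR adjusted p = 0.00132), but without WT replicate 1 it was 0.67 (adjusted p = 0.0204) and without PARP1-KO replicate 2 it was 0.78 (adjusted p = 0.0129). With only the libraries compared in the fit its adjusted p was 0.0261. With DMSO the groups did not overlap and the log2 fold change was 1.72 ± 0.22 (edgeR adjusted p = 2.2e-08), with a mean of 19.6 ± 7.07 CPM in WT and 64.2 ± 8.91 CPM in PARP1-KO cells (SD, n = 4).

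ATF3, DDIT3 and NUPR1, which act downstream of ATF4, had the 3 largest log2 fold changes of the 9 genes without treatment. ATF3, an early stress and DNA damage factor, was at 112, 104.2, 88.4 and 103.7 CPM in untreated WT and at 278, 368, 329 and 329.8 CPM in untreated PARP1-KO cells, a log2 fold change of 1.68 ± 0.11 (edgeR adjusted p = 1.85e-18). DDIT3, a C/EBP family member linked to cell death under prolonged stress, was at 28.8, 28.9, 29.04 and 16.6 CPM in WT and at 100.5, 103.5, 80.1 and 92.5 CPM in PARP1-KO cells, a log2 fold change of 1.86 ± 0.18 (edgeR adjusted p = 1.26e-11). NUPR1, a small chromatin-associated stress protein, was at 13.8, 13.1, 11.7 and 9.87 CPM in WT and at 50.5, 43.9, 39.2 and 43.1 CPM in PARP1-KO cells, a log2 fold change of 1.86 ± 0.21 (edgeR adjusted p = 8.32e-10). In these 3 genes every PARP1-KO library was above every WT library, which was so for 11.3% of all genes tested. MARS1, the partner of DDIT3 on the other strand and itself an ATF4 target, rose by a smaller log2 fold change of 0.59 ± 0.10 (edgeR adjusted p = 1.02e-05), and its part in the DDIT3 counts was not tested.

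TRIB3 stood at 66.2, 50.9, 60.7 and 36.8 CPM in untreated WT and at 100.99, 115.2, 109.6 and 104.1 CPM in untreated PARP1-KO cells. The groups did not overlap, and the log2 fold change was 1.00 ± 0.13, a 2.00-fold difference (edgeR adjusted p = 5.32e-08). With DMSO the 4 PARP1-KO libraries lay close together, at 112, 114.1, 114.9 and 111 CPM, above WT libraries at 55.5, 39.98, 53.9 and 36.8 CPM, and the log2 fold change was 1.27 ± 0.14 (edgeR adjusted p = 8.34e-11).

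ATF5 and JDP2 did not pass the test in either comparison. ATF5, a factor of the mitochondrial stress response, had a mean of 46.3 ± 6.84 CPM in WT and 43.0 ± 3.19 CPM in PARP1-KO cells (SD, n = 4), and the 95% interval of the log2 fold change was -0.47 to 0.26. JDP2 had 8.39 ± 1.73 CPM in WT and 10.9 ± 2.17 CPM in PARP1-KO cells, with an interval of -0.21 to 0.94. With DMSO, 7 of the 9 genes were again called higher and none lower, where 6.67% of all genes tested were called higher and 5.75% lower, and these were the genes named above. With only the libraries compared in the fit the count with DMSO was 6, where 761 of 22409 genes were called higher. ATF4 was the gene lost (edgeR adjusted p = 0.0129). In bulk samples a change in the share of cells that express a gene and a change of its RNA per cell cannot be told apart.

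**Figure D2:**
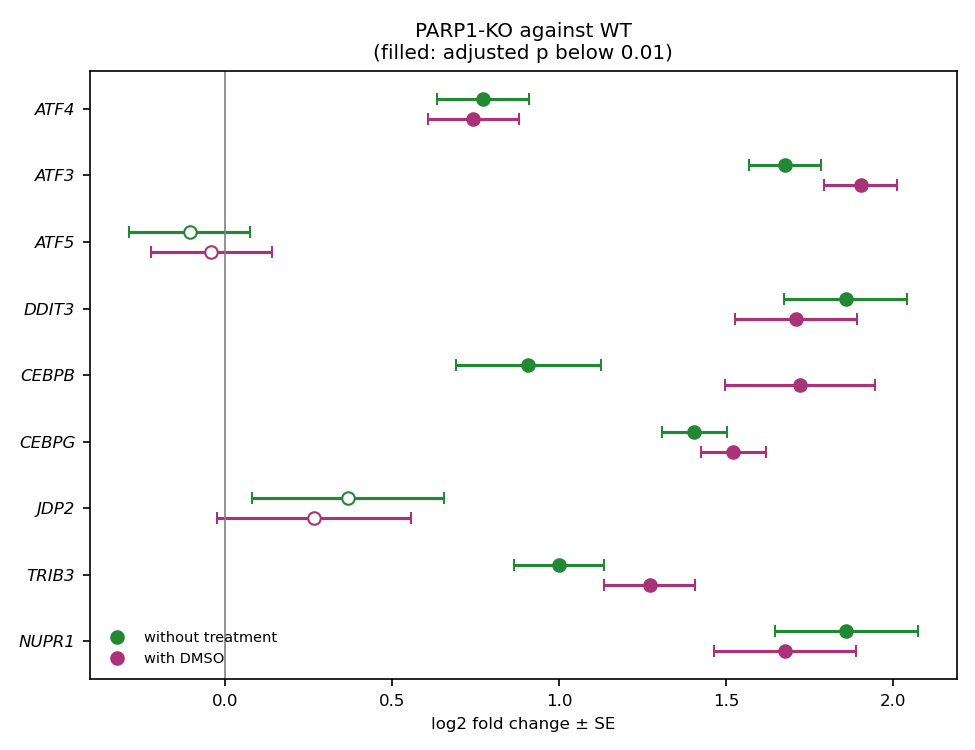
Log2 fold change ± SE of the 9 genes in PARP1-KO against WT cells, without treatment (green) and with DMSO (magenta), with filled points for an adjusted p below 0.01. ATF3, DDIT3 and NUPR1 have the largest changes without treatment, 1.68, 1.86 and 1.86, and the ATF5 and JDP2 points are open in both conditions.

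Known ATF4 targets were read as 4 hand-made lists of 43 genes, all of which were tested. Without treatment 20 were higher and 3 were lower in PARP1-KO cells, with a median log2 fold change of 0.51 where that of all genes tested was 0.17, and with DMSO 22 were higher and 3 were lower, with medians of 0.49 and 0.19. Stress effectors had the largest changes, with 6 of 10 higher and none lower and a median of 1.26. Among them GDF15, a secreted stress cytokine, rose from 19.8 ± 4.96 to 103.8 ± 4.16 CPM, and PPP1R15A, which recruits the phosphatase that reverses eIF2α phosphorylation, rose from 158 ± 29.97 to 658 ± 47.7 CPM (SD, n = 4; edgeR adjusted p = 6.67e-14 and 3.39e-20). The mTOR inhibitor gene DDIT4 rose from 72.0 to 205 CPM. Of the aminoacyl-tRNA synthetases, which charge transfer RNAs, 8 of 12 were higher and none was lower, led by LARS1 with a log2 fold change of 0.97 ± 0.11. Of the amino acid transporters 4 of 9 were higher, led by the cystine carrier SLC7A11 with 1.08 ± 0.22, and 1 was lower, SLC1A4, with -0.65 ± 0.15. In amino acid metabolism 2 of 12 were higher, the serine synthesis enzyme PSAT1 (0.83 ± 0.10) and the mitochondrial folate enzyme MTHFD2 (0.68 ± 0.11), and 2 were lower, ALDH18A1 (-0.49 ± 0.11) and ALDH1L2 (-0.99 ± 0.28).

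The genes upstream of ATF4, which hold the eIF2α kinases, had 2 of 10 higher and none lower. Their median log2 fold change was 0.13, where that of all genes tested was 0.17, or 0.03 with filterByExpr. The called genes were both higher. They were PPP1R15B, the constitutive partner of the same phosphatase (0.86 ± 0.13), and EIF2S1, which encodes eIF2α itself (0.71 ± 0.11). Genes of the other arms of the unfolded protein response had 2 of 14 higher and 4 lower. The endoplasmic reticulum chaperones PDIA4, CALR and HYOU1 were lower, with log2 fold changes of -1.19 ± 0.11, -0.73 ± 0.11 and -0.64 ± 0.13, and the median of this list was -0.14. Of 19 relatives of the members 17 were tested, 9 were higher and 1 was lower. FOSB, a subunit of the AP-1 factor, had 2.90 ± 3.09 CPM in WT and 49.1 ± 3.57 CPM in PARP1-KO cells, and JUNB had 34.9 ± 4.58 and 143 ± 14.6 CPM. The other paralogues of TRIB3 moved in opposite directions. TRIB1, which was named after its values were seen, was higher, with a log2 fold change of 0.86 ± 0.15 (edgeR adjusted p = 1.73e-05). TRIB2 was lower, with 47.2 ± 9.58 CPM in WT and 22.3 ± 1.61 CPM in PARP1-KO cells (log2 fold change -1.09 ± 0.18, edgeR adjusted p = 2.88e-06).

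The solvent did not move any of the 9 genes past the threshold. Against no treatment, DMSO called 0 members in edgeR, where 0% of all genes tested were called, and also 0 in DESeq2, in each genotype. The share of all genes at an unadjusted p below 0.05 was not counted, here and below. At this level WT cells had 1 member and PARP1-KO cells 0. It was CEBPB in WT, at 30.8 ± 12.2 CPM without treatment and 19.6 ± 7.07 CPM with DMSO (log2 fold change -0.65 ± 0.22, adjusted p = 0.304), with overlapping groups.

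Tpc, which traps TOP1 on DNA, was compared with no treatment to ask which of these genes respond to such damage. In WT cells at 100 nM, 2 of the 9 genes rose and none fell, where 0.553% of all genes were called higher and 0.304% lower. ATF3 went from 112, 104.2, 88.4 and 103.7 CPM to 344, 373, 365 and 349 CPM. The groups were far apart, and the log2 fold change was 1.81 ± 0.11, a 3.50-fold rise (edgeR adjusted p = 1.22e-19). CEBPG went from 145, 122.7, 135 and 146 CPM to 199, 225, 223 and 217 CPM (0.65 ± 0.10, edgeR adjusted p = 3.83e-06), and with only the libraries compared in the fit its adjusted p was 0.0118. TRIB3 was not called, with 53.6 ± 12.9 CPM without treatment and 48.1 ± 2.98 CPM with Tpc (SD, n = 4) and a 95% interval of the log2 fold change of -0.43 to 0.11. ATF4 and NUPR1 were not called either, with log2 fold changes of 0.19 ± 0.14 and 0.14 ± 0.22. DDIT3 had no overlap between the groups, at 25.9 ± 6.16 and 34.7 ± 1.92 CPM, but its log2 fold change of 0.42 ± 0.18 did not pass (edgeR adjusted p = 0.255). How many of all genes had no overlap between these groups was not counted. Against DMSO, which the Tpc samples also held, 3 of the 9 genes were called higher, where 182 of the 28922 genes tested were. The added gene was CEBPB (1.01, edgeR adjusted p = 0.00394), which had 0.36 ± 0.22 against no treatment and passed only against DMSO.

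In PARP1-KO cells at 50 nM Tpc none of the 9 genes was called in edgeR or in DESeq2, where 0.0138% of all genes were called, all of them lower. At an unadjusted p below 0.05 there was 1 member, JDP2, with 13.8, 11.1, 10.2 and 8.64 CPM without treatment and 2.21, 8.06, 6.504 and 8.08 CPM with Tpc (log2 fold change -0.80 ± 0.29, adjusted p = 0.778). The groups did not overlap, and replicate 1 with Tpc, at 2.21 CPM, lay below the other 3 libraries of its group. How many of all genes had no overlap here was not counted either. ATF3, which was already at 326 ± 36.9 CPM without treatment, was at 334 ± 14.05 CPM with Tpc, close to the 358 ± 13.5 CPM of WT cells with Tpc (SD, n = 4). There its log2 fold change had a 95% interval of -0.18 to 0.24. The difference between the genotypes in the response of ATF3 was itself tested and was -1.78 ± 0.15 on the log2 scale (edgeR adjusted p = 4.99e-13), where 0.083% of all genes were called lower in this test. CEBPG had a difference of -0.54 ± 0.13, which did not pass in edgeR (adjusted p = 0.0859) and passed in DESeq2 (-0.53, adjusted p = 0.0014) and against DMSO (-0.66, edgeR adjusted p = 0.00494). The doses of Tpc differed between the genotypes, and dose and genotype cannot be told apart here.

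Of the 43 ATF4 targets 4 rose with Tpc in WT cells and none fell, among them PPP1R15A with 158 ± 29.97 and 393 ± 36.8 CPM, SLC7A11 with 11.96 ± 4.06 and 22.8 ± 4.04 CPM and MTHFD2 with 168 ± 18.2 and 236 ± 17.5 CPM. This count fell to 1 without WT untreated replicate 1 or without WT Tpc replicate 4, and to 2 without WT Tpc replicate 1 or 3. Of the relatives, the AP-1 subunits JUN (1.35 ± 0.12) and JUNB (1.23 ± 0.17) rose. No gene of the upstream list or of the other arms of the unfolded protein response was called.

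OL9-119 alone is the contrast by which DDIT3 had been noted, so its values are given as a description without a test. In WT cells DDIT3 went from 28.8, 28.9, 29.04 and 16.6 CPM without treatment to 107.8, 155, 101.4 and 101.01 CPM with OL9-119, a log2 fold change of 2.16, and against DMSO it was 1.87. Replicate 2 with OL9-119 was the highest library and replicate 4 without treatment the lowest, and without them in turn the log2 fold change was 1.99 and 2.01. TRIB3 went from 66.2, 50.9, 60.7 and 36.8 CPM to 147, 158, 128.4 and 123.8 CPM, a log2 fold change of 1.37. CEBPB went from 14.5, 31.96, 44.2 and 32.4 CPM to 83.3, 86.7, 87.9 and 91.0 CPM, a log2 fold change of 1.51, which was 1.27 without WT untreated replicate 1, 1.74 without WT untreated replicate 3 and 2.16 against DMSO. All 4 OL9-119 libraries of each of these genes were above all untreated libraries.

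The other members in WT ranged from a log2 fold change of 1.41 to -0.07 with OL9-119. JDP2 went from 7.63, 10.5, 8.89 and 6.495 CPM to 20.7, 25.2, 18.7 and 25 CPM (log2 fold change 1.41), CEBPG from 137 ± 11.01 to 289 ± 9.96 CPM (1.07) and ATF3 from 102.04 ± 9.81 to 205 ± 21.7 CPM (1.01), with SD and n = 4. ATF3 stood lower with OL9-119 than with Tpc, where it was at 358 ± 13.5 CPM. NUPR1 went from 12.1 ± 1.73 to 27.8 ± 12.7 CPM (1.20), and 1 library, replicate 2, reached 46.4 CPM beside 19.1 to 26.1 CPM in the other 3. Without it the log2 fold change was 0.84. ATF4 itself went from 432 ± 125.2 to 633 ± 105 CPM (0.55) with overlapping groups, and ATF5 from 46.3 ± 6.84 to 44.1 ± 11.9 CPM (-0.07). In all, 7 of the 9 genes had OL9-119 libraries wholly above the untreated libraries, where 2.99% of all genes did so, and 7 did so against DMSO, where 3.12% of all genes did so. The rule that picked the genes used this contrast.

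In PARP1-KO cells the log2 fold changes with OL9-119 were closer to 0 than in WT for 8 of the 9 genes. The share of all genes with this trait was not counted, and OL9-119 was known to raise some of the genes when they were picked. ATF5 was the exception, with -0.22 against no treatment and -0.32 against DMSO, where WT had -0.07 and -0.11. DDIT3 went from 100.5, 103.5, 80.1 and 92.5 CPM to 125.3, 135, 138 and 130.3 CPM, a log2 fold change of 0.49, and was alone in having no overlap, where 1.96% of all genes were higher without overlap. Against DMSO none of the 9 genes was free of overlap, where 1.07% of all genes were. TRIB3 went from 107.5 ± 6.27 to 120.2 ± 6.75 CPM (0.16), and ATF4 from 738 ± 56.8 to 812 ± 41.5 CPM (0.14). JDP2 was at 10.9 ± 2.17 and 10.5 ± 2.11 CPM (-0.05). With OL9-119 the mean level of DDIT3 in PARP1-KO cells was 1.14 times that in WT cells, after 3.64 times without treatment, and for TRIB3 these ratios were 0.863 and 2.00. For JDP2 the ratio was 1.30 without treatment and 0.469 with OL9-119, where the highest PARP1-KO library lay under the lowest WT library. How many of all genes did so was not counted.

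The addition of OL9-119 to Tpc gave a further view of the inhibitor, on libraries other than those with OL9-119 alone. The genes were picked with earlier results of these data known, so this view is not independent of that choice. In WT cells 3 of the 9 genes rose and none fell, where 0.118% of all genes were called higher and 0.0622% lower. DDIT3 was at 34.6, 36.7, 35.3 and 32.1 CPM with Tpc and at 73.1, 109, 80.2 and 79.9 CPM with Tpc and OL9-119. The groups did not overlap, and the log2 fold change was 1.30 ± 0.18, a 2.47-fold rise (edgeR adjusted p = 4.5e-06). MARS1, which shares exonic bases with DDIT3, had a log2 fold change of 0.39 ± 0.10 that did not pass (edgeR adjusted p = 0.0873). TRIB3 was at 51.8, 48.5, 47.5 and 44.6 CPM with Tpc and at 91.6, 106, 103.1 and 86.8 CPM with both agents, which gave 1.01 ± 0.14, a 2.02-fold rise (edgeR adjusted p = 1.69e-06). CEBPG was at 199, 225, 223 and 217 CPM and at 301, 264, 319.6 and 314 CPM, which gave 0.47 ± 0.10 (edgeR adjusted p = 0.0047), and this call was lost when any of 6 of the 8 libraries was left out, with adjusted p of 0.0155 to 0.0395.

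In all, 6 of the 9 genes had combination libraries wholly above the Tpc libraries, where 1.88% of all genes did so. CEBPB and NUPR1 had log2 fold changes of 0.94 ± 0.22 and 0.88 ± 0.21 and groups without overlap, and did not pass (edgeR adjusted p = 0.0275 and 0.0436). CEBPB passed with only the libraries compared in the fit (adjusted p = 0.00893), without a filter on low counts (1.15e-05) and with length and GC offsets (0.000981). CEBPG, which was called in the main fit, lost its call with length and GC offsets (edgeR adjusted p = 0.0802). It also lost its call without a filter on low counts. ATF4 had 0.39 ± 0.14 (edgeR adjusted p = 0.268), with 493 ± 59.2 CPM with Tpc and 648 ± 84.4 CPM with both agents. ATF3 was level, at 358 ± 13.5 and 364 ± 17.5 CPM (SD, n = 4), with a 95% interval of the log2 fold change of -0.19 to 0.23. ATF5 had -0.14 ± 0.18.

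In PARP1-KO cells the addition of OL9-119 to Tpc called none of the 9 genes in edgeR or DESeq2, where 0% of all genes were called. At an unadjusted p below 0.05 there were 2 members, JDP2 (log2 fold change 0.94 ± 0.29) and TRIB3 (0.30 ± 0.13), both with an adjusted p of 1. DDIT3 was at 98.5, 89.4, 90.5 and 107 CPM with Tpc and at 122.2, 113, 78.4 and 121.2 CPM with both agents, and its 95% interval of the log2 fold change was -0.18 to 0.53. The interval of TRIB3 was 0.04 to 0.57. The difference between the genotypes was tested as well, and 0 of the 9 genes passed in edgeR or DESeq2. In edgeR 0.00692% of all genes passed. At an unadjusted p below 0.05 there were 4 members, and the share of all genes at that level was not counted. DDIT3 had a difference of -1.13 ± 0.25 with a 95% interval of -1.63 to -0.62 (edgeR adjusted p = 0.12), which passed with only the libraries compared in the fit (-1.10, adjusted p = 0.00428) and without a filter on low counts (-1.12, adjusted p = 0.000521). TRIB3 had -0.71 ± 0.19 with an interval of -1.09 to -0.33 (edgeR adjusted p = 0.455). A p that misses the threshold does not show that the genotypes act alike, and the doses of Tpc in these groups differed.

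**Figure D3:**
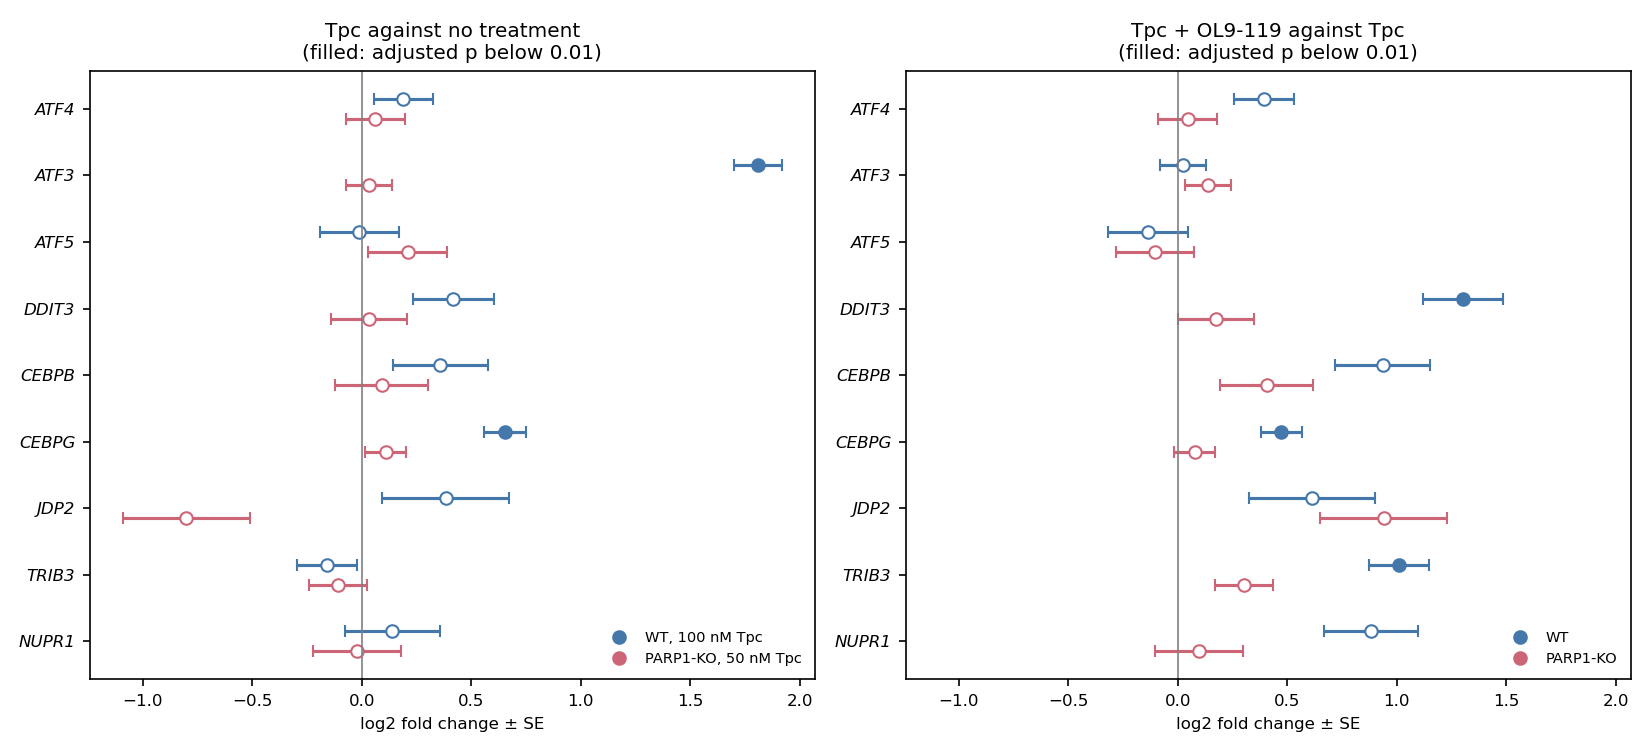
Log2 fold change ± SE of the 9 genes with Tpc against no treatment (left) and with Tpc and OL9-119 against Tpc (right), WT in blue and PARP1-KO in red, with filled points for an adjusted p below 0.01. In WT cells ATF3 has 1.81 in the left and 0.02 in the right panel, while DDIT3 and TRIB3 have 1.30 and 1.01 in the right panel. The Tpc dose was 100 nM in WT and 50 nM in PARP1-KO cells.

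Of the 43 ATF4 targets 15 rose and none fell when OL9-119 was added to Tpc in WT cells, with a median log2 fold change of 0.55 where the median of all genes was 0. CHAC1, a glutathione-degrading enzyme, went from 7.69 ± 1.82 to 30.6 ± 11.1 CPM, and SLC7A11 from 22.8 ± 4.04 to 65.3 ± 20.6 CPM (SD, n = 4). DDIT4, STC2, CTH and AARS1 also rose, with log2 fold changes of 1.22 ± 0.14, 0.98 ± 0.12, 1.54 ± 0.27 and 0.68 ± 0.11. The count was 8 without WT Tpc replicate 1 or 3, and 8 without WT Tpc and OL9-119 replicate 2. Of the other arms of the unfolded protein response 1 of 14 rose, XBP1, the transcription factor of the IRE1 arm (0.70 ± 0.13), and of the upstream list and the relatives none was called. In PARP1-KO cells 0 of the 43 targets were called, with a median of 0.10. In the test of the difference between the genotypes 1 of the 43 was called.

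**Figure D4:**
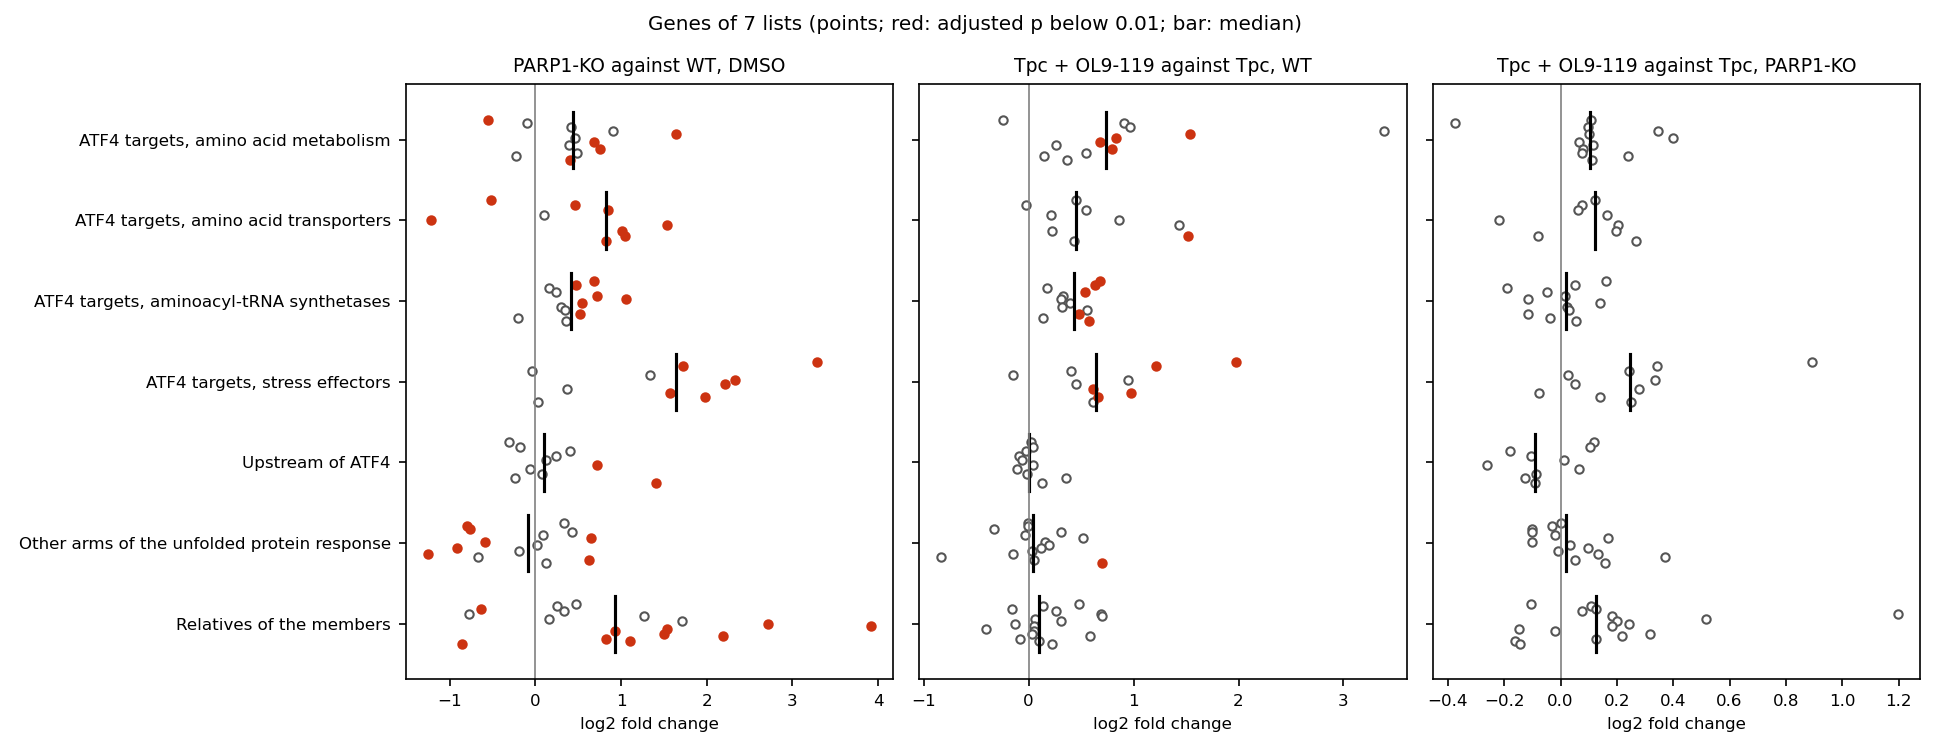
Log2 fold change (horizontal axes, each panel with its own range) of every tested gene of 7 lists in PARP1-KO against WT cells with DMSO (left) and with OL9-119 added to Tpc in WT (middle) and PARP1-KO cells (right), with red points for an adjusted p below 0.01 and bars for the median. In the middle panel 15 of the 43 ATF4 targets and 1 gene of the other 3 lists are red, and in the right panel no point is red.

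Against no treatment, Tpc with OL9-119 raised 7 of the 9 genes in WT cells and lowered none, where 2.07% of all genes were called higher and 2% lower. This comparison shares its untreated libraries with those of Tpc alone and OL9-119 alone, so the 3 sets of values are not independent. ATF3 had a log2 fold change of 1.83 ± 0.11, DDIT3 of 1.72 ± 0.19, CEBPB of 1.30 ± 0.22, CEBPG of 1.13 ± 0.10 and TRIB3 of 0.85 ± 0.14, with edgeR adjusted p from 7.24e-20 to 3.28e-05. With only the libraries compared in the fit the adjusted p of TRIB3 was 0.0106. NUPR1 had 1.02 ± 0.21 (edgeR adjusted p = 0.000814), and without replicate 2 of the combination 0.78 (adjusted p = 0.0173). ATF4 had 0.58 ± 0.14 (edgeR adjusted p = 0.0028), a call that was lost when any of 5 of the 8 libraries was left out, with adjusted p of 0.0123 to 0.0217. ATF4 also lost its call against DMSO, where the other genes called here kept theirs, and with upper-quartile normalization. With only the libraries compared in the fit the edgeR adjusted p was 0.0513 for ATF4 and 0.0483 for NUPR1. JDP2 (1.00 ± 0.29) had an adjusted p of 0.0199 and ATF5 (-0.15 ± 0.18) of 0.701. In PARP1-KO cells 0 of the 9 genes were called in edgeR or DESeq2, where 0% of all genes were called, and 1 member, CEBPB (0.50 ± 0.21), had an unadjusted p below 0.05.

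The order of the 10 groups by mean level differed between the genes, and most neighbours in each order overlapped. For TRIB3 the WT groups with DMSO, Tpc and no treatment were lowest (46.6 to 53.6 CPM) and overlapped one another, a gap separated them from WT cells with both agents (96.96 CPM), and the 5 PARP1-KO groups (99.9 to 122.9 CPM) and WT cells with OL9-119 (139 CPM) followed with overlap at each step. For DDIT3 the order was similar, with WT cells without drug or with Tpc at 25.9 to 34.7 CPM, a gap, and all other groups from 85.5 to 132 CPM. Of the 9 steps from the lowest to the highest group, 1 was free of overlap for TRIB3, DDIT3 and NUPR1, 2 for ATF3, 3 for CEBPG and 0 for ATF4, ATF5, CEBPB and JDP2. Groups were sorted by their own means, and such steps were not counted for other genes, so these numbers are descriptions. ATF3 had its gaps on both sides of WT cells with OL9-119, at 205 CPM between 102.04 and 326 CPM. For JDP2 the highest groups were WT cells with OL9-119 (22.4 CPM) and with both agents (16.8 CPM), and the lowest was PARP1-KO cells with Tpc (6.21 CPM).

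Most members also varied together over the WT libraries, and less so over the PARP1-KO libraries. After each genotype's mean was subtracted, DDIT3 and TRIB3 had a Pearson r of 0.93 over 40 libraries, 0.955 within the 20 WT libraries and 0.56 within the 20 PARP1-KO libraries. Over the 36 pairs of members the median r was 0.62 in all, 0.68 in WT and 0.28 in PARP1-KO libraries, and no pair with ATF5 was above 0.29 in all. These values carry the treatments, depth and shared scaling of the libraries and are descriptions. Of 11945 genes with a mean of at least 5 CPM, those most like TRIB3 were SAT1 (r = 0.92), PSAT1 (0.91), AARS1 (0.91), TSC22D3 (0.90) and DDIT4 (0.87). Those most like DDIT3 were PSAT1 (0.91), AARS1 (0.90), SAT1 (0.90), SESN2 (0.89) and GARS1 (0.89). Those most like ATF4 were the synthetase genes SARS1 (0.87), GARS1 (0.86) and YARS1 (0.86), the noncoding GAS5 (0.82) and EIF2S2 (0.81), a subunit of eIF2. For these 15 pairs r was 0.836 to 0.946 within the 20 WT libraries and 0.29 to 0.738 within the 20 PARP1-KO libraries, with 0.292 for TRIB3 and PSAT1, 0.29 for DDIT3 and AARS1 and 0.353 for ATF4 and YARS1.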

How the data were processed

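RNA of 40 HEK293A samples in 10 groups was sequenced by the authors as directional poly(A) libraries with paired-end reads. STAR 2.7.8 served the authors for alignment to hg38, and they deposited the raw counts per gene that its gene counting option gave, and FastQC 0.11.9 and Picard 2.26.6 are also named in their processing notes. The strand setting of the counting is not given in the sources used here. Samples were grouped by their titles, and no column of other samples was present (0 columns). Library totals are given in the text, and their number and depth limit the precision.

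Genes with at least 10 counts in all were kept, scaled by TMM and tested in edgeR 4.0.16 (R 4.3.3) with a quasi-likelihood F-test over all 40 libraries with 1 term per group. P-values were adjusted after Benjamini and Hochberg over all genes tested, with a threshold of 0.01. SE was the log2 fold change divided by the root of F, and intervals are 95% from the t distribution on the degrees of freedom of the fit. DESeq2 1.42.0 and other settings were alternatives. The fit was tested on simulated data. Groups not overlapping means that every library of one group was above every library of the other.

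The members and the gene lists were chosen with earlier results of these data known. Levels with OL9-119 alone against no treatment or DMSO were not tested for this reason. All members are named. Of each list, called genes were named among the 3 with the largest increase and the 3 with the largest decrease, given a mean of at least 50 counts and groups not overlapping. The genes most alike were the 5 with the highest r of log2 CPM, with a prior count of 2. GENCODE 44 gave positions for 57754 of 58395 genes, and start sites and sequences are from RefSeq and hg38. The 60 pairs of libraries within groups differed by more than counting error, with a chi-square per degree of freedom of 2.33 to 57.9, so all were kept as separate samples.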

Additional observations from a re-analysis of the deposited data

Results flagged for a closer look

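Of 90 groups of 4 libraries, 4 had a library far from the other 3, and chance gives about 1 in 20 such groups. ATF4 in WT cells with Tpc was at 581 CPM in replicate 2, where the nearest library was at 469.6 CPM. DDIT3 in untreated WT cells was at 16.6 CPM in replicate 4, where the nearest was at 28.8 CPM. DDIT3 in WT cells with OL9-119 was at 155 CPM in replicate 2, where the nearest was at 108 CPM. CEBPG in WT cells with DMSO was at 126.5 CPM in replicate 2, where the nearest was at 132.6 CPM.

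The response of ATF3 to Tpc differed between the genotypes by -1.78 on the log2 scale (PARP1-KO minus WT, edgeR adjusted p = 4.99e-13). ATF3 rose in WT cells from 102.04 to 358 CPM and was at 326 and 334 CPM in PARP1-KO cells, at Tpc doses of 100 nM and 50 nM.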

How the results depend on the processing

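No member's call changed direction under any alternative, with 0 reversals among 504 alternatives of 27 called results, of which 479 kept the call and 25 lost it. Of 81 results that were not called, 13 of 1629 alternatives called them. With a threshold of 0.05 the addition of OL9-119 to Tpc in WT called 5 members. With only the libraries compared in the fit, PARP1-KO against WT called 6 members without treatment (CEBPB was lost, adjusted p = 0.0261) and 6 with DMSO (ATF4 was lost, adjusted p = 0.0129), Tpc in WT called 1 member, the combination against no treatment in WT called 4, and the genotype difference in the effect of OL9-119 on top of Tpc called 1. That difference also called 1 member without a filter on low counts. The genotype difference in the Tpc response called 2 members against DMSO and 2 with DESeq2. The cause of these changes was not tested.

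With 1 library left out at a time, the members called were 6 to 7 for PARP1-KO against WT without treatment, 7 with DMSO, 2 for Tpc in WT, 2 to 3 for OL9-119 added to Tpc in WT, 5 to 7 for the combination against no treatment in WT and 1 for the genotype difference in the Tpc response. Shares of all genes called with a library left out are not given here. Without WT replicate 2 of the combination, NUPR1 lost its call. The median log2 fold change of the members with OL9-119 alone was 1.05 to 1.34 in WT and 0.12 to 0.19 in PARP1-KO cells. The calls of DDIT3 and TRIB3 when OL9-119 was added to Tpc in WT held in each of these fits.

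The samples were not treated as paired by replicate number, since in no comparison was every pair's correlation of deviations over 0.1. A single pair reached 0.499, for DMSO against no treatment in WT, so the check does not exclude pairing. With the replicate number as a block the members called were 7 and 7 for the genotypes, 2 for Tpc, 3 for OL9-119 added to Tpc and 7 for the combination, all in WT for the drugs, 1 for the genotype difference in the Tpc response and 0 in the other comparisons, as without it. Of all 28922 genes, the block fit called 1794 and 1973 higher for the genotypes. For these drug comparisons in WT it called 178, 40 and 639 higher, and for the genotype difference in the Tpc response 26 lower. The 40 libraries had 3455043 to 20379777 counts, and JDP2, with 25 to 307 counts per library, was the least precise member.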
